A study of Mus musculus with 16 samples.

Results

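Adult neurogenesis in the hippocampus was read through 10 genes that mark its steps, namely *Nes*, *Mki67*, *Top2a*, *Eomes*, *Neurod1*, *Sox4*, *Sox11*, *Dcx*, *Igfbpl1* and *Draxin*. They were chosen by name from the 55335 genes of the count table, all 10 were found, and 9 of them were among the 16475 genes with enough reads to be tested. The tissue was the whole hippocampus of 16 female mice, 4 in each of 4 groups, all carrying a 28-day intracerebroventricular pump and aged 10 months at dissection. WT-D and WT-S mice were of the strain labelled C57BL/6J x 129S1, and 3xTg-D and 3xTg-S mice were of the 3xTg-AD line, which carries, among its alleles, human APPSwe and tauP301L transgenes driven by a neuron-specific Thy1.2 element. The D groups received vehicle (0.8% DMSO in artificial cerebrospinal fluid) and the S groups CAY10566, an inhibitor of stearoyl-CoA desaturase, at 80 µM in the same vehicle. The treatment labels name the Cayman compound, whereas a protocol text common to all samples names ab142089.

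In the adult dentate gyrus, radial stem cells carrying the intermediate filament nestin (*Nes*) give rise to dividing progenitors, which pass through a stage marked by the transcription factor Tbr2 (*Eomes*). Their daughters become neuroblasts that switch on *Neurod1*, *Sox4* and *Sox11*, bundle microtubules with doublecortin (*Dcx*), and later mature into granule cells. This lineage dwindles with age and is a very small share of the hippocampus, so most of these transcripts are scarce in whole tissue and several are also made by other cells: *Neurod1* by mature granule cells, *Nes* by vessels, and *Mki67* and *Top2a* by any cell in division. The question put to these genes was whether genotype or the inhibitor changed them. In bulk tissue, fewer cells of a type and less RNA per cell cannot be told apart.

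Each mouse gave between 15413385 and 23590149 reads on genes, and reads that fell outside annotated genes made up 7.82% (3xTg-S 2) to 15.1% (3xTg-S 4) of the library. Granule cell identity was present in every mouse, with 92.1 to 158 CPM (reads on a gene scaled to a common library size) of *Prox1*, the master regulator of granule neurons. Markers of the tissue that borders the ventricle, a list of 7 choroid plexus and ependymal genes, summed to 740 CPM in WT-D 4 and 299 CPM in WT-S 1. The sums were 43.6 to 71.6 CPM in the other WT-D mice, 36.6 to 43.1 CPM in the other WT-S mice, 37.4 to 53.8 CPM in 3xTg-D and 33.9 to 41.1 CPM in 3xTg-S mice. In 3xTg-D 2, 6 astrocyte genes summed to 3970 CPM against 2540 to 2940 CPM in the other 3xTg-D mice, 6 microglial genes to 744 against 407 to 475 CPM, and 11 stem cell genes to 532 against 336 to 388 CPM. WT-D 1 stood apart in antigen presentation, leukocyte and dividing-cell genes, as described with *Mki67*. The human transgenes were not analysed here.

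Per length of annotated exon, *Neurod1* was the most abundant of the 10 genes, at 10.5 ± 0.803 RPKM (CPM per kilobase of exon, SD, n = 16 mice of all groups). *Sox4* followed at 4.68 ± 0.338 RPKM and *Sox11* at 2.30 ± 0.297 RPKM, and this order of the first 3 genes held in each of the 16 mice. *Nes* (1.45 ± 0.287 RPKM) and *Dcx* (1.25 ± 0.297 RPKM) overlapped, with *Nes* the higher in 12 of 16 mice. The dividing-cell genes *Top2a* (0.220 ± 0.217 RPKM) and *Mki67* (0.167 ± 0.172 RPKM) lay lower. Their spreads overlapped, and *Top2a* was the higher in 14 of 16 mice. *Igfbpl1* (0.103 ± 0.0532 RPKM) and *Draxin* (0.0825 ± 0.0339 RPKM) were close to each other, with *Igfbpl1* higher in 9 of 16 mice, and *Eomes* was lowest at 0.0308 ± 0.0191 RPKM. The abundant genes were also the steadiest, since the highest mouse exceeded the lowest 1.30-fold in *Sox4* and 1.35-fold in *Neurod1*, against 1.55-fold in *Sox11* and 2.69-fold in *Dcx* (CPM).

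**Figure D1:**
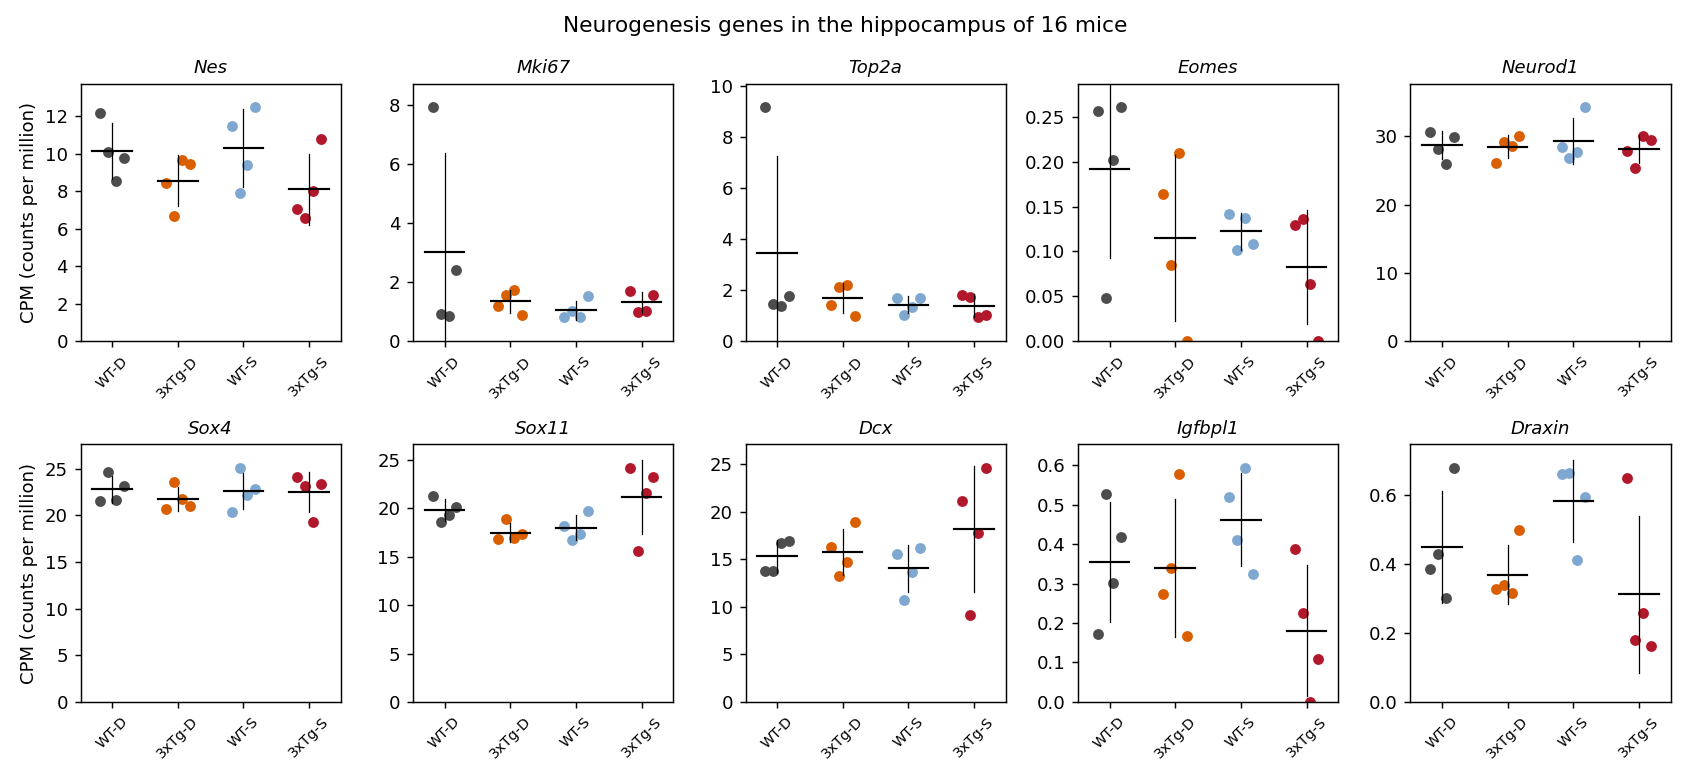
CPM of the 10 genes (vertical axes, each starting at 0) in each mouse (points, left to right mouse 1 to 4) of the 4 groups, with the group mean (horizontal bar) and SD (vertical line, drawn down to 0 at most). Groups overlap in most panels, WT-D 1 lies far above the other mice in *Mki67* (7.94 CPM) and *Top2a* (9.18 CPM), and the 3xTg-S mice spread widely in *Dcx* (9.14 to 24.6 CPM).

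Across the 8 comparisons, 1 of the 9 tested genes passed the threshold of an unadjusted p of 0.01 or less in edgeR's quasi-likelihood test, and it did so once: *Sox11*, in the genotype by CAY10566 interaction. For 3xTg-D vs WT-D, 0 of 9 passed, against 4.91% of all tested genes, and 1 gene (*Sox11*) had p under 0.05, against 12.6% of all. For 3xTg-S vs WT-S, 0 of 9 passed (4.26% of all), with 1 gene (*Igfbpl1*) under 0.05 (10.7% of all). For 3xTg-S vs 3xTg-D, 0 of 9 passed (0.904% of all), with *Sox11* alone under 0.05 (6.33% of all), and for WT-S vs WT-D, 0 of 9 passed (0.188% of all), with *Mki67* alone under 0.05 (2.25% of all). For 3xTg-S vs WT-D, 0 of 9 passed (5.69% of all), and 0 were under 0.05 (13.1% of all). Averaged over infusions, the genotypes differed at the threshold in 0 of 9 genes (7.93% of all), with 2 genes (*Nes* and *Draxin*) under 0.05 (15.7% of all). Averaged over genotypes, CAY10566 changed 0 of 9 (0.88% of all), with 0 under 0.05 (4.68% of all). The interaction gave 1 of 9 (0.595% of all), which was also the only gene under 0.05 (4.98% of all). DESeq2's likelihood ratio test, with either set of size factors, gave the same numbers of genes at the 0.01 threshold in all 8 comparisons.

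**Figure D2:**
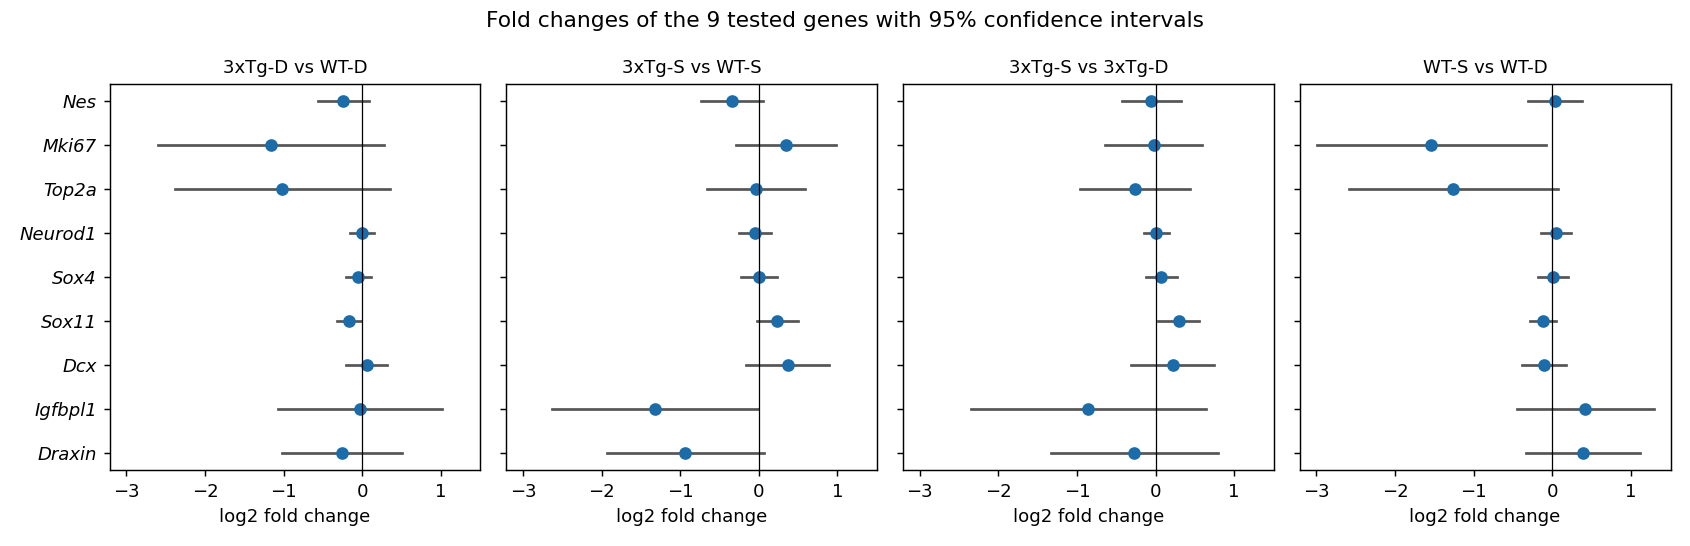
Log2 fold changes (horizontal axis; points) with 95% confidence intervals (lines) of the 9 tested genes in the 4 pairwise comparisons that vary genotype or infusion alone (panels). Intervals were narrow for *Neurod1* and *Sox4*, between -0.25 and 0.27 on the log2 scale in each panel, and wide for *Mki67*, *Top2a*, *Igfbpl1* and *Draxin*.

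*Nes* (chromosome 3, 87971078 to 87980451, GRCm38, plus strand), the stem and progenitor cell filament, was read at 12.2, 10.1, 8.57 and 9.78 CPM in WT-D mice 1 to 4 and at 8.43, 6.70, 9.66 and 9.47 CPM in 3xTg-D mice. Under CAY10566 it was at 11.5, 7.89, 9.41 and 12.5 CPM in WT-S and at 7.07, 6.56, 8.03 and 10.8 CPM in 3xTg-S mice. The 3xTg values lay lower on average and overlapped the WT values under both infusions. The sum of 8 endothelial and mural genes was 265 to 299 CPM in WT-D and 224 to 261 CPM in 3xTg-D mice, without overlap, and 240 to 376 CPM in WT-S and 230 to 298 CPM in 3xTg-S mice. Of these 8 genes, 0 passed the threshold for 3xTg-D vs WT-D (4.91% of all genes passed). The part of this sum in the *Nes* values was not tested. Averaged over infusions, the log2 difference was -0.29 (SE 0.12, 95% interval -0.54 to -0.03, adjusted p = 0.25, edgeR), which missed the threshold. With the share of reads outside genes as a covariate it was -0.31 (adjusted p = 0.0770), past the threshold, and so was the value without 3xTg-S 4 (-0.38, adjusted p = 0.0858). Of all tested genes, 10.4% passed with the covariate and 7.19% without 3xTg-S 4, against 7.93% in the main fit. CAY10566 averaged over genotypes left *Nes* at a log2 difference of -0.01 (95% interval -0.26 to 0.25).

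*Mki67* (chromosome 7, 135689784 to 135716361, minus strand) encodes the Ki-67 antigen of cycling cells, and *Top2a* (chromosome 11, 98992943 to 99024189, minus strand) the topoisomerase that untangles DNA before chromosomes separate. Both were dominated by 1 mouse. *Mki67* was at 7.94, 0.911, 0.857 and 2.41 CPM in WT-D mice 1 to 4, that is 185, 19, 17 and 46 reads. It was at 1.2, 1.57, 1.73 and 0.886 CPM in 3xTg-D, at 0.804, 1.02, 0.822 and 1.52 CPM in WT-S and at 1.69, 0.996, 1.03 and 1.56 CPM in 3xTg-S mice. *Top2a* was at 9.18, 1.44, 1.36 and 1.78 CPM in WT-D mice, the first of these being 214 reads. It was at 1.42, 2.12, 2.21 and 0.997 CPM in 3xTg-D, at 1.70, 1.02, 1.32 and 1.68 CPM in WT-S and at 1.82, 1.72, 0.964 and 1.02 CPM in 3xTg-S mice. Leaving WT-D 1 aside, the groups overlapped in both genes.

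With all mice, the log2 fold change for WT-S vs WT-D was -1.54 in *Mki67* (SE 0.66, adjusted p = 1.00, edgeR) and -1.26 in *Top2a* (SE 0.60, adjusted p = 1.00). Without WT-D 1 these became -0.39 (SE 0.40, adjusted p = 1.00) and -0.07 (SE 0.24, adjusted p = 1.00). For 3xTg-D vs WT-D, the log2 fold change of *Mki67* went from -1.16 (SE 0.65, adjusted p = 0.511) to -0.01 (SE 0.39, adjusted p = 0.994) without WT-D 1, and that of *Top2a* from -1.02 (SE 0.62, adjusted p = 0.539) to 0.17 (SE 0.29, adjusted p = 0.871). The comparisons that do not use WT-D 1 gave *Mki67* a log2 fold change of -0.02 for 3xTg-S vs 3xTg-D (95% interval -0.64 to 0.59) and 0.34 for 3xTg-S vs WT-S (95% interval -0.30 to 0.98). For *Top2a* they gave -0.26 (95% interval -0.97 to 0.44) and -0.03 (95% interval -0.66 to 0.59). *Top2a* had 15 to 50 reads per mouse outside WT-D 1. These intervals include both falls and rises, and the smallest detectable change was not computed.

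The start regions of both genes are shown because both genes were highest in WT-D 1. They run from 250 bases before to 50 after the start annotated by RefSeq (GRCm38.p6), 5′ to 3′ on the gene's strand, and capitals mark 2 kinds of motif. The CCAAT box reads ATTGG on the other strand. The cell cycle homology region of cell cycle promoters reads TTTGAA, which on the other strand becomes TTCAAA, or else it reads TTCGAA on both strands.
*Mki67*, chr7:135716330-135716629: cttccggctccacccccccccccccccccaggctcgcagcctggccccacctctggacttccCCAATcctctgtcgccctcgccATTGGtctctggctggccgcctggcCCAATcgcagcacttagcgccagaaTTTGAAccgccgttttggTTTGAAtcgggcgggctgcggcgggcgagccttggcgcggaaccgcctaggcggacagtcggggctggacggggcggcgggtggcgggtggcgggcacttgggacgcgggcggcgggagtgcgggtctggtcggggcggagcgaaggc
*Top2a*, chr11:99024140-99024439: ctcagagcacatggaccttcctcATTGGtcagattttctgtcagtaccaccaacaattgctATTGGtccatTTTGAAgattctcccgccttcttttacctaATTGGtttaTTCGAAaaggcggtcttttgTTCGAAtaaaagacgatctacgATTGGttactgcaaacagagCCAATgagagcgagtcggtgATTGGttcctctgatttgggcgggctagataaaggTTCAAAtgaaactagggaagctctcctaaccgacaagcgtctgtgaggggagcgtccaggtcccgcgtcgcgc

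The *Mki67* window held 3 CCAAT boxes, 188, 166 and 141 bases before the start, and 2 copies of the homology element, 116 and 98 bases before it. The *Top2a* window held 6 CCAAT boxes, between 227 and 58 bases before the start, and 4 homology elements, between 179 and 23 bases before it. Among 32851 RefSeq start windows of the same length, 37.4% held a CCAAT box, 3.37% held 3 or more, 19.2% held a homology element and 7.52% held both. Windows were matched for 22 of 26 dividing-cell genes (*Mki67*, *Top2a* and a list of 24), and 56.5% of their 23 windows held both. None of these sites overlap in either window, and the matches describe letters only. Start windows were matched for 9 of the 10 neurogenesis genes, and *Igfbpl1* had no entry.

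WT-D 1 was the highest of the 16 mice in 17 of the 26 dividing-cell genes. Among the 21 that were tested it was highest in 13 (61.9%), whereas it was highest in 6.62% of all tested genes. *Cdk1*, the kinase that drives mitosis, was at 1.46 CPM in WT-D 1 against a median of 0.263 CPM in the other 15 mice. *Aurkb*, a kinase of chromosome segregation, was at 0.987 against 0.102 CPM, and *Birc5*, its partner survivin, at 1.76 against 0.554 CPM. *Rrm2*, which supplies nucleotides for replication, was at 2.49 against 0.769 CPM. Antigen presentation and leukocyte genes, listed after their values were seen, were also at their highest in this mouse, and the 12 genes summed to 334 CPM in WT-D 1 and to 11.5 to 79.5 CPM in all others. The 6 microglial genes summed to 581 CPM in WT-D 1 and to 335 to 404 CPM in the other WT-D mice, and were highest in 3xTg-D 2 (744 CPM). *Cd74*, the invariant chain of MHC class II, was at 107 CPM against at most 21.7 CPM elsewhere, and *Ccr2*, a monocyte receptor, at 6.56 against at most 0.763 CPM. *Cd3e* of T cells was at 0.343 CPM. In each of the other 8 neurogenesis genes another mouse was the highest, and *Dcx* in WT-D 1 was at 13.8 CPM. The part of leukocytes or microglia in the *Mki67* and *Top2a* levels was not tested.

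**Figure D3:**
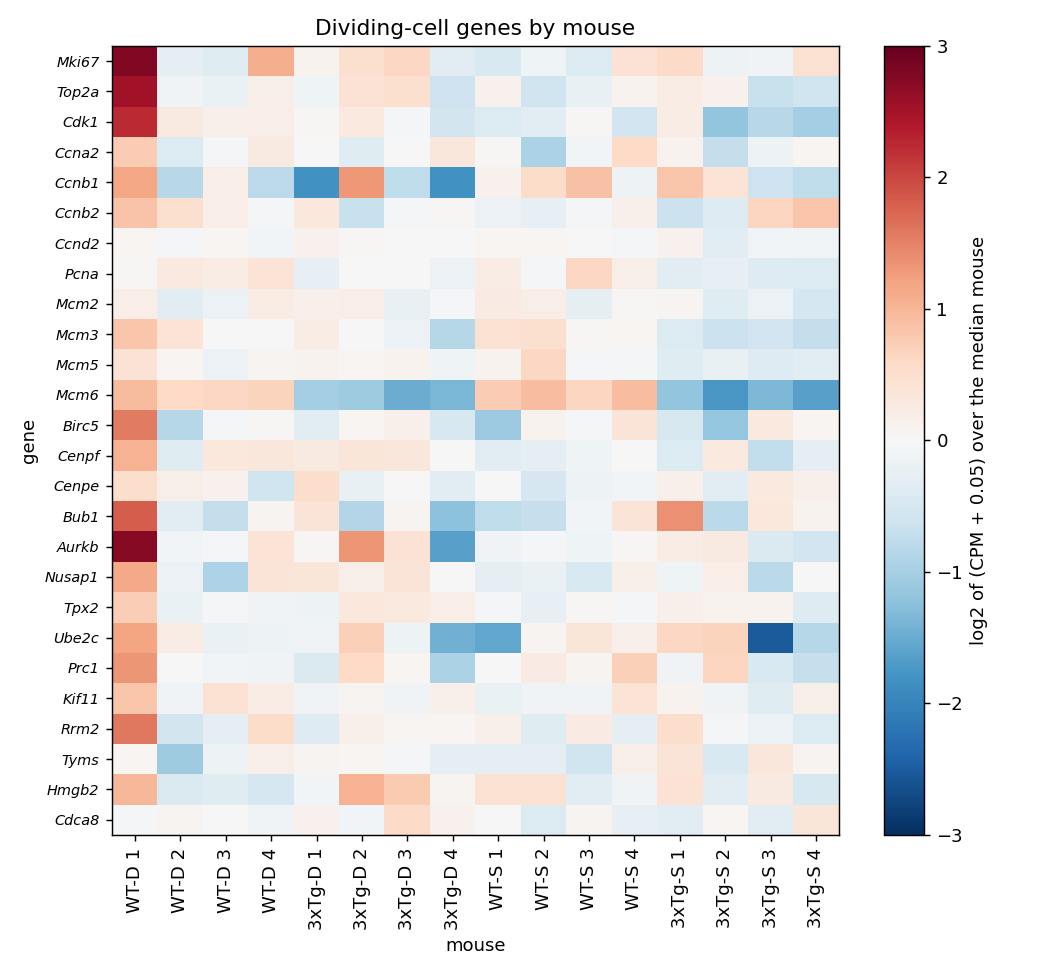
Heat map of 26 dividing-cell genes (rows) in 16 mice (columns), coloured by log2 of CPM + 0.05 over the median mouse. The WT-D 1 column is red in most rows, with 9.18 CPM of *Top2a*, and *Mcm6* separates the WT from the 3xTg mice.

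*Eomes* (chromosome 9, 118478212 to 118486132, plus strand) was too scarce for a test, with 41 reads over all mice. WT-D mice 1 to 4 held 6, 1, 4 and 5 reads, 3xTg-D mice 3, 2, 4 and 0, WT-S mice 3, 2, 3 and 2, and 3xTg-S mice 2, 3, 1 and 0. The 0 counts allow up to 0.166 CPM in 3xTg-D 4 and 0.161 CPM in 3xTg-S 4, by counting error alone. Without a filter on low counts, the log2 difference between genotypes averaged over infusions was -0.61 (SE 0.54, adjusted p = 0.834, edgeR).

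*Neurod1* (chromosome 2, 79452521 to 79456751, minus strand), a proneural factor that also stays on in granule cells, was at 28.7 ± 2.07 CPM in WT-D, 28.5 ± 1.71 CPM in 3xTg-D, 29.3 ± 3.41 CPM in WT-S and 28.2 ± 2.07 CPM in 3xTg-S mice (SD, n = 4 each). The log2 fold change was 0.00 for 3xTg-D vs WT-D (95% interval -0.15 to 0.15) and 0.01 for 3xTg-S vs 3xTg-D (95% interval -0.15 to 0.17). The gene lies wholly within the span of *Cerkl* on the same strand. Overlap of their exons was not examined, so how far their reads are separated is not known.

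*Sox4* (chromosome 13, 28948919 to 28953713, minus strand) and *Sox11* (chromosome 12, 27334264 to 27342574, minus strand) are related transcription factors of immature neurons. *Sox4* was at 22.8 ± 1.51 CPM in WT-D, 21.8 ± 1.27 CPM in 3xTg-D, 22.6 ± 1.96 CPM in WT-S and 22.5 ± 2.15 CPM in 3xTg-S mice. Its log2 fold change for 3xTg-S vs 3xTg-D was 0.07 (95% interval -0.12 to 0.27). *Sox11* was at 21.3, 18.6, 19.3 and 20.1 CPM in WT-D mice 1 to 4 and at 16.8, 18.9, 16.9 and 17.4 CPM in 3xTg-D mice. It was at 18.2, 16.7, 17.4 and 19.7 CPM in WT-S and at 24.2, 15.6, 21.6 and 23.3 CPM in 3xTg-S mice. Thus 3 of the 4 3xTg-S mice lay above every other mouse, and the fourth lay below all 15.

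For *Sox11* the log2 fold change was -0.17 for 3xTg-D vs WT-D (SE 0.07, adjusted p = 0.341) and 0.30 for 3xTg-S vs 3xTg-D (SE 0.12, adjusted p = 0.722), with -0.12 for WT-S vs WT-D (SE 0.07, adjusted p = 1.00). The interaction, the difference between the effects of CAY10566 in 3xTg and WT mice, was 0.42 (SE 0.14, 95% interval 0.12 to 0.71, adjusted p = 0.788, edgeR). It passed the unadjusted threshold and not the adjusted one. Leaving out single mice kept the value between 0.35 and 0.51 and lost the call in 12 of 16 fits, and the share of reads outside genes as a covariate brought it to 0.27 (adjusted p = 1.00). Without 3xTg-S 2, the mouse with the lowest *Sox11*, the rise for 3xTg-S vs 3xTg-D was 0.41 (SE 0.08, adjusted p = 0.204), and that for 3xTg-S vs WT-S was 0.34 (adjusted p = 0.0953), both past the threshold. Of all tested genes, 4.87% and 6.03% passed without this mouse, against 0.904% and 4.26% with all mice.

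*Dcx* (chromosome X, 143855842 to 143933311, minus strand), the neuroblast gene most used as a readout of neurogenesis, was at 13.8, 13.8, 16.7 and 16.9 CPM in WT-D mice 1 to 4. It was at 16.3, 13.2, 14.7 and 18.9 CPM in 3xTg-D mice and at 15.5, 10.7, 13.7 and 16.2 CPM in WT-S mice. In 3xTg-S mice it was at 21.1, 9.14, 17.7 and 24.6 CPM, which are the 2 highest values of the 16 mice and the lowest. The log2 fold change was 0.06 for 3xTg-D vs WT-D (95% interval -0.20 to 0.32), 0.37 for 3xTg-S vs WT-S (95% interval -0.16 to 0.90), 0.22 for 3xTg-S vs 3xTg-D (95% interval -0.31 to 0.75) and -0.11 for WT-S vs WT-D (95% interval -0.39 to 0.18). Without 3xTg-S 2, *Dcx* passed the threshold for 3xTg-S vs WT-S (0.58, SE 0.15, adjusted p = 0.0933), for 3xTg-S vs WT-D (0.48, adjusted p = 0.0581) and for the genotypes averaged over infusions (0.31, adjusted p = 0.0939). More genes of all kinds passed in these fits: 6.03%, 9.38% and 8.25% of all tested genes, against 4.26%, 5.69% and 7.93% with all mice. 3xTg-S 2 had the lowest share of reads outside genes, and 3xTg-S 4, the highest in *Dcx*, had the highest.

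The level of *Dcx* followed that share closely within groups. Over 16 mice, the deviations of log2 CPM of *Dcx* and of the share from their group means had a Pearson r of 0.939 (permutation within groups, p = 3e-05, adjusted p = 0.00027 over 9 genes) and a Spearman rho of 0.888 (permutation p = 6e-05). When 3xTg-S 2 and 3xTg-S 4, whose shares lay farthest from the median, were left out, r was 0.860 (permutation p = 0.00228, adjusted p = 0.0205), and leaving out any 1 mouse gave r between 0.882 and 0.966. Among all 16475 tested genes, *Dcx* ranked 125 by r with the share, so many genes outside this set followed it more closely. None of the other 8 genes had a relation with the share past an adjusted p of 0.05 when centred on the groups. For *Sox11* r was 0.724 (permutation p = 0.0461, adjusted p = 0.138), and it fell to 0.335 without the same 2 mice and to 0.336 without 3xTg-S 2 alone. Without centring on the groups, r for *Sox11* was 0.747 (permutation p = 0.00073, adjusted p = 0.00328). *Sox4*, at r = -0.276 (permutation p = 0.446), and *Igfbpl1*, at r = -0.227 (permutation p = 0.632), had coefficients of the other sign. With the share as a covariate, the log2 fold change of *Dcx* was 0.07 for 3xTg-S vs WT-S (SE 0.11, adjusted p = 0.866) and -0.16 for 3xTg-S vs 3xTg-D (SE 0.10, adjusted p = 0.766), in place of 0.37 and 0.22.

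**Figure D4:**
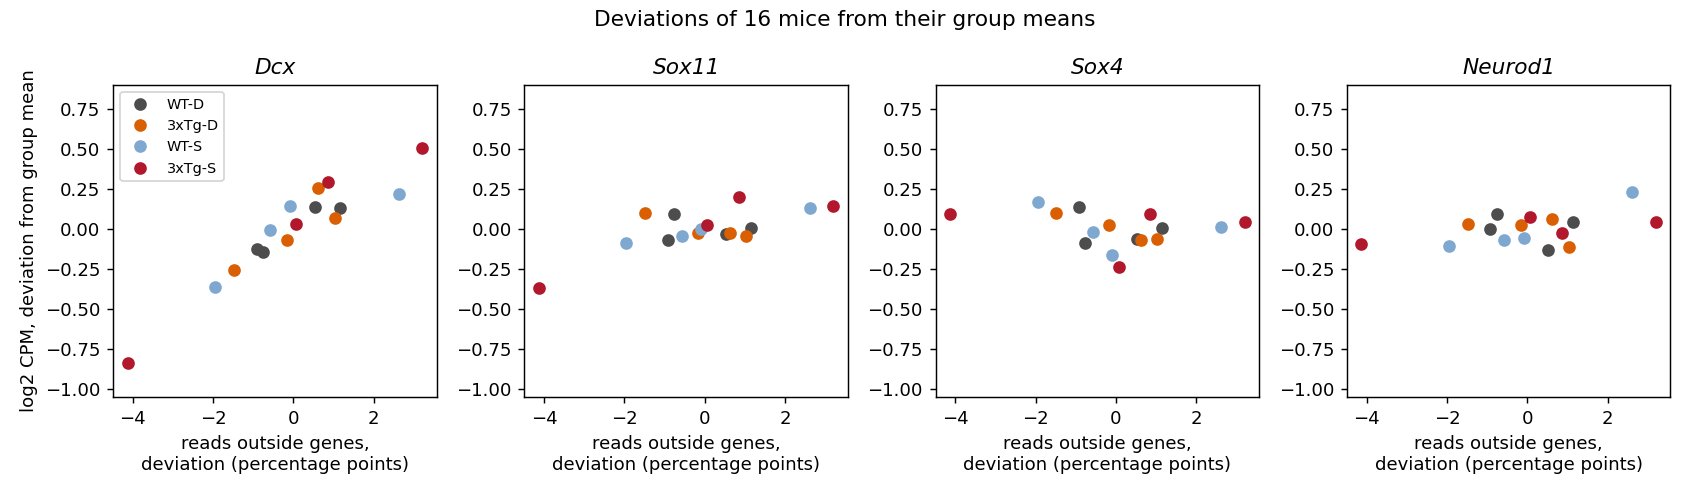
Deviation from the group mean of log2 CPM (vertical axis) against that of the share of reads outside genes (horizontal axis, percentage points) for 16 mice coloured by group, in 4 neuroblast genes. *Dcx* rises with the share in all 4 groups (r = 0.939), *Sox11* less steadily (r = 0.724), and the coefficients were -0.276 for *Sox4* and 0.461 for *Neurod1*.

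Mice high in *Dcx* were not shown to be high in the other markers. Of 8 relations with the other tested genes, centred on the groups, 0 had an adjusted p of 0.05 or less. The strongest were *Sox11* (r = 0.757, rho = 0.588, permutation p = 0.0574 and 0.0474, adjusted p = 0.322 and 0.379) and *Nes* (r = 0.540, permutation p = 0.0804). Without 3xTg-S 2 and 3xTg-S 4, r with *Sox11* was 0.232. It was 0.247 without 3xTg-S 2 alone and 0.724 without 3xTg-S 4 alone, so this relation rested on 3xTg-S 2. *Igfbpl1*, which like *Dcx* marks neuroblasts, had r = -0.177 (permutation p = 0.727) and *Draxin* r = 0.249 (permutation p = 0.588). The 5 genes most like *Dcx* of 16474, by r over the 16 mice, were *Smc5* (0.977), *Atad2b* (0.971), *Col5a1* (0.968), *A230103L15Rik* (0.966) and *Tet2* (0.966). Each of these also followed the share of reads outside genes, with r of 0.922 to 0.967. The 5 genes most like *Mki67* were *Irf1* (0.911), *C4b* (0.861), *H2-T10* (0.853), *Brip1os* (0.846) and *Top2a* (0.842). The r values with *Mki67* include WT-D 1, which dominated that gene at 7.94 CPM, and were not computed without this mouse.

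*Igfbpl1* (chromosome 4, 45809468 to 45826923, minus strand), a neuroblast gene of the insulin-like growth factor binding family, was counted at 4, 11, 6 and 8 reads in WT-D mice 1 to 4 and at 5, 8, 11 and 3 reads in 3xTg-D mice. It had 11, 8, 13 and 6 reads in WT-S and 6, 5, 0 and 2 reads in 3xTg-S mice. The 0 in 3xTg-S 3 allows up to 0.193 CPM. The WT-S and 3xTg-S mice overlapped, at 0.462 ± 0.119 against 0.181 ± 0.167 CPM (SD, n = 4), and the log2 fold change was -1.32 (SE 0.60, 95% interval -2.64 to -0.01, adjusted p = 0.447). For 3xTg-D vs WT-D it was -0.03 (95% interval -1.07 to 1.02), and the interaction was not past the threshold (-1.28, SE 0.78, adjusted p = 0.788).

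*Draxin* (chromosome 4, 148098437 to 148130698, minus strand), a secreted axon guidance protein, had 9, 9, 6 and 13 reads in WT-D mice, 6, 8, 6 and 9 in 3xTg-D, 14, 13, 9 and 11 in WT-S and 10, 4, 4 and 3 in 3xTg-S mice. All WT-S mice exceeded 3 of the 4 3xTg-S mice. The log2 fold change for 3xTg-S vs WT-S was -0.94 (SE 0.45, adjusted p = 0.493), and the genotypes averaged over infusions differed by -0.60 (SE 0.28, 95% interval -1.19 to -0.00, adjusted p = 0.302). Without 3xTg-S 1 both passed the threshold, at -1.52 (SE 0.41, adjusted p = 0.169) and -0.89 (SE 0.25, adjusted p = 0.0491). Of all tested genes, 3.53% and 7.6% passed without this mouse.

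Around these genes, lists of other genes of the lineage showed a few large differences between genotypes. Rises and falls in these lists are calls at the unadjusted threshold, and the adjusted p stands beside each. Of 24 cell cycle genes, 19 were tested, and 3 were lower and 0 higher in 3xTg averaged over infusions (7.93% of all genes passed), with a median log2 difference of -0.116 against 0.00843 over all genes. *Mcm6*, a subunit of the replicative helicase, was at 14.5 to 18.5 CPM in the 8 WT mice and 2.85 to 4.76 CPM in the 8 3xTg mice, which did not overlap, with a log2 difference of -2.11 (SE 0.09, adjusted p = 1.82e-10). *Mcm3* of the same helicase fell by 0.68 (SE 0.16, adjusted p = 0.0193) and *Pcna*, the sliding clamp of replication, by 0.46 (SE 0.09, adjusted p = 0.00298) on the log2 scale. *Mcm2* and *Mcm5*, also on this list, were tested and did not pass. The mitotic kinases *Cdk1* and *Aurkb* were too scarce for the test.

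Of 7 genes of intermediate progenitors, 1 rose and 0 fell between genotypes averaged over infusions (7.93% of all genes passed). *Neurog2* (chromosome 3, 127633135 to 127635631), a proneural factor that acts just before *Eomes*, had 1 to 5 reads in each WT mouse and 11 to 37 reads in each 3xTg mouse (0.0479 to 0.228 and 0.707 to 1.57 CPM). The log2 difference was 3.28 (SE 0.28, 95% interval 2.69 to 3.88, adjusted p = 6.43e-07). It lies 34678 bases from *Alpk1*, an innate immune kinase that fell by 1.72 (SE 0.12, adjusted p = 4.58e-08, edgeR) on the log2 scale between the same genotypes. *Insm1*, *Hes6* and the other genes of this list did not pass the test, and neither did *Neurod1*, which follows *Neurog2* in the lineage. Of 11 stem cell genes, 10 were tested, and 1 was lower, a share near the 7.93% of all genes: *Id4*, an inhibitor of differentiation, with -0.37 (SE 0.11, adjusted p = 0.0617).

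Of 20 immature neuron genes, 0 passed between genotypes averaged over infusions. For 3xTg-S vs WT-S, 3 rose and 1 fell (4.26% of all genes passed). *Tbr1*, a cortical neuron factor, rose by 0.37 (SE 0.08, adjusted p = 0.0577), *Dpysl5*, a growth cone protein, by 0.31 (SE 0.09, adjusted p = 0.214) and *St8sia2*, which adds polysialic acid to NCAM, by 0.49 (SE 0.16, adjusted p = 0.232). *Tubb2b*, a tubulin of young neurons, fell by 0.35 (SE 0.11, adjusted p = 0.224). Of 9 mature granule cell genes, 2 were lower in 3xTg averaged over infusions and 0 higher (7.93% of all genes passed). *C1ql2*, a synaptic organiser of mossy fibres, was at 26.4 to 48.8 CPM in WT and 13.6 to 25.1 CPM in 3xTg mice without overlap, a log2 difference of -1.13 (SE 0.12, adjusted p = 6.39e-06). It lies on chromosome 1 (120340582 to 120343174), as do *Mcm6* (128331590 to 128359664) and, farther off, *Mcm3* (20802968 to 20820312). The part of chromosomal position in these differences, and in that of *Lct*, was not tested. *Lct* fell by 0.46 (SE 0.11, adjusted p = 0.0205), while *Prox1*, at 109 to 158 CPM in WT and 92.1 to 133 CPM in 3xTg mice, and *Calb1* did not pass.

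Of 24 niche signals, 2 were higher and 2 lower in 3xTg averaged over infusions (7.93% of all genes passed). *Bdnf*, a neurotrophin that promotes survival of new neurons, fell by 0.37 (SE 0.06, adjusted p = 0.00116) and *Cxcl12*, a chemokine that holds progenitors in place, by 0.19 (SE 0.06, adjusted p = 0.0712), while *Nog*, an antagonist of bone morphogenetic proteins, rose by 0.52 (SE 0.11, adjusted p = 0.00973) and *Wnt7a* by 0.28 (SE 0.07, adjusted p = 0.0368) on the log2 scale. Markers of other cell types moved with genotype beside these. Of the 7 choroid plexus and ependymal genes, 2 were lower, *Ttr* (adjusted p = 0.0306, edgeR) and *Foxj1* (adjusted p = 0.00236). WT-D 4 and WT-S 1 held the high sums given above. Of 6 oligodendrocyte precursor genes, *Gpr17* was higher (adjusted p = 0.0169) and *Olig2* lower (adjusted p = 0.0229). *Vip* of interneurons was higher (adjusted p = 0.00274). *Rgs5* of mural cells (adjusted p = 0.0635) and *Bok* of pyramidal neurons (adjusted p = 0.0767) were lower. The 6 microglial, 6 astrocyte and 7 subventricular lineage genes did not pass between genotypes averaged over infusions, and *Dlx1* of the subventricular list was higher for 3xTg-D vs WT-D, by 0.27 (SE 0.08, adjusted p = 0.139). The 7 subventricular lineage genes, also expressed by interneurons, summed to 72.3 to 98.6 CPM in all mice. The part of these markers in the values above was not tested.

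In the single comparisons of genotype, which share mice with the averaged one and with each other, the same lists gave these calls. For 3xTg-D vs WT-D (4.91% of all genes passed, edgeR), the log2 fold change was 3.62 for *Neurog2* (adjusted p = 0.00108) and -1.93 for *Mcm6* (adjusted p = 3.04e-05). It was -0.33 for *Pcna* (adjusted p = 0.156), -1.01 for *C1ql2* (adjusted p = 0.00232) and -0.42 for *Lct* (adjusted p = 0.0934). Among niche signals it was 0.59 for *Nog* (adjusted p = 0.0748), 0.30 for *Nr2e1* (adjusted p = 0.185) and -0.21 for *Cxcl12* (adjusted p = 0.149). Of the stem cell and immature neuron genes, 0 passed. For 3xTg-S vs WT-S (4.26% of all genes passed), the log2 fold change was 2.94 for *Neurog2* (adjusted p = 0.00321) and -2.30 for *Mcm6* (adjusted p = 7.07e-06). It was -0.87 for *Mcm3* (adjusted p = 0.0341) and -0.60 for *Pcna* (adjusted p = 0.0653). *C1ql2* was at -1.27 (adjusted p = 0.00401) and *Id4* at -0.55 (adjusted p = 0.0675). The niche calls there were *Bdnf* (-0.50, adjusted p = 0.0243), *Smo*, the transducer of hedgehog signals (-0.44, adjusted p = 0.151), and *Wnt7a* (0.36, adjusted p = 0.122). For 3xTg-S vs WT-D (5.69% of all genes passed), the log2 fold change was 3.72 for *Neurog2* (adjusted p = 0.00113) and -2.18 for *Mcm6* (adjusted p = 2.68e-05). It was -0.94 for *Mcm3* (adjusted p = 0.0627), -0.57 for *Pcna* (adjusted p = 0.0177) and -1.32 for *C1ql2* (adjusted p = 4.55e-05). *Lct* was at -0.53 (adjusted p = 0.0579), *Id4* at -0.44 (adjusted p = 0.151) and *Tubb2b* at -0.27 (adjusted p = 0.171). *Bdnf* (-0.38, adjusted p = 0.0562), *Wnt7a* (0.40, adjusted p = 0.114) and *Nog* (0.53, adjusted p = 0.128) were the niche calls in that comparison.

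**Figure D5:**
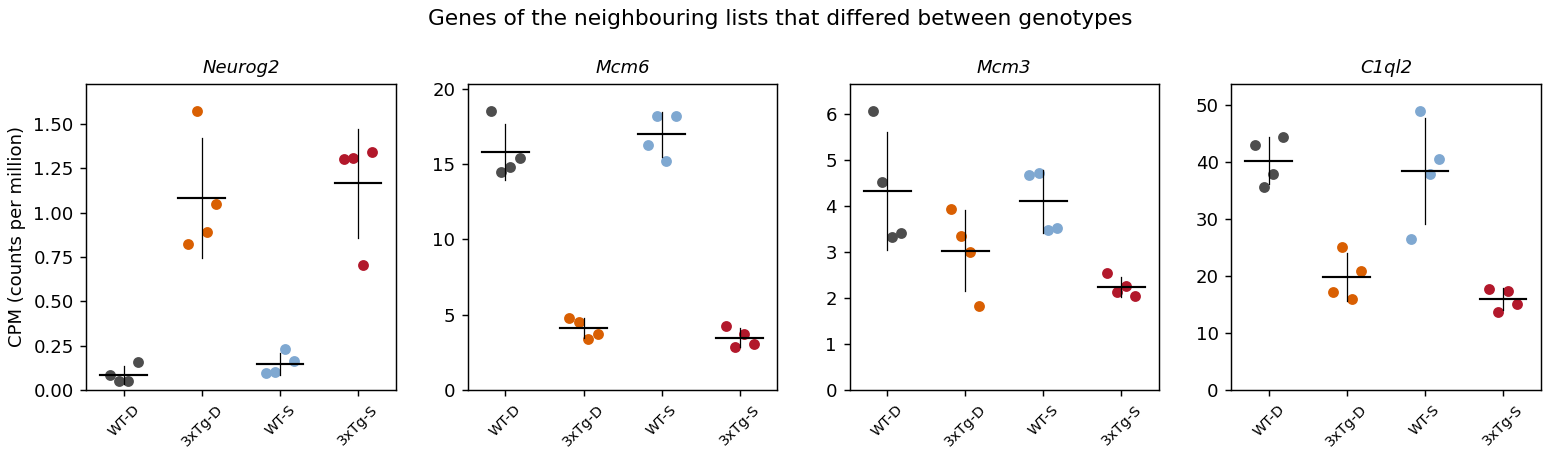
CPM of *Neurog2*, *Mcm6*, *Mcm3* and *C1ql2* (vertical axes, starting at 0) in each mouse (points) by group, with group mean (bar) and SD (line). WT and 3xTg mice do not overlap in *Neurog2*, *Mcm6* and *C1ql2* under either infusion, and in *Mcm3* they overlap under vehicle.

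For 3xTg-S vs 3xTg-D, 0 genes of the 6 lineage and niche lists passed (0.904% of all genes), and for WT-S vs WT-D 1 did (0.188% of all): *Nr2e1*, the stem cell receptor TLX, rose by 0.28 (SE 0.08, adjusted p = 1.00). It was also called higher for 3xTg-D vs WT-D, by 0.30 (SE 0.09, adjusted p = 0.185), against the same WT-D mice. The ependymal genes *Foxj1*, a master regulator of motile cilia, and *Ccdc153* were lower in 3xTg-S than in 3xTg-D mice, by 0.66 (SE 0.17, adjusted p = 0.722) and 0.90 (SE 0.21, adjusted p = 0.722) on the log2 scale. *Foxj1* was at 4.65 to 7.11 CPM in 3xTg-D and 2.85 to 3.89 CPM in 3xTg-S mice, without overlap. In the interaction, *Tbr1* (0.43, SE 0.13, adjusted p = 0.788) and the stem cell gene *Pax6* (-0.46, SE 0.15, adjusted p = 0.788) passed the unadjusted threshold beside *Sox11*.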

How the data were processed

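Hippocampal poly(A) RNA of 16 female mice was sequenced single-end. Per the labels, the authors trimmed reads with Trimmomatic 0.35, aligned them with STAR 2.5.1b to GRCm38, and deposited whole-number read counts for each gene, not normalized. Strand setting and use of the molecular identifiers are not given in the sources used here, so reads of overlapping genes may be shared. By gene span, *Draxin* overlaps *Mad2l2* by 315 bases on the other strand, and *Neurod1* lies within *Cerkl*. Also on the other strand, *Neurod1* overlaps *Gm26755* (2767 bases), *Sox4* *Gm26735* (2753), *Mki67* *Gm45240* (674) and *Eomes* *Gm33460* (574). *Top2a* overlaps *Gm26394* (115 bases, other strand) and *Gm23451* (122 bases, same strand). Reads outside annotated genes stayed out of library sizes.

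Counts were analysed in R 4.3.3 with edgeR 4.0.16. Genes were kept by filterByExpr (minimum count 10, minimum total 15), library sizes were scaled by TMM, and groups were compared by the quasi-likelihood test (two-sided). The call threshold was the study's, p of 0.01 before adjustment, with Benjamini-Hochberg adjusted p over all 16475 tested genes beside it. Confidence intervals were 95%. Levels are CPM or, per annotated exon length (Gencode, same build), RPKM. Relations across mice used log2 CPM with a prior count of 2, centred on the groups, and permutation tests within groups (100000 resamples, two-sided). Mice of a group differed by more than counting noise (chi-square 3.9 to 47.2 per degree of freedom). The labels do not say which litters or days the mice share.

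The members and lists were chosen with earlier results of these data known. The text names all 10 members, per lineage or niche list and comparison the genes past the threshold, at most 4 by the lowest p, and the 5 genes most like *Dcx* and *Mki67*. Genes named for not passing, the other marker genes and those of WT-D 1 were chosen after their values were seen. Alternatives were DESeq2 1.42.0 with median-ratio or DEGES size factors, edgeR with median-ratio size factors, other filters, the adjusted threshold, the replicate number as a block, 2 covariates, all 16 mice in one fit, and each mouse left out. For WT-S vs WT-D, same-numbered mice deviated together in all 4 pairs (r of at least 0.114 across genes). The mean r of same-numbered mice was 0.217 in that comparison and 0.241 for 3xTg-S vs WT-S. The labels do not say that the mice are paired. The main fits left the numbers out, and the block was an alternative only. The blocked fit changed no member's call for WT-S vs WT-D. For the other pairs of groups at least 1 number had r of 0.1 or less. Fits were tested on simulated counts. One allele of the 3xTg line and the level of 1 leukocyte gene are not reported here.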

Additional observations from a re-analysis of the deposited data

Results flagged for a closer look

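In 40 sets of 4 mice (10 genes in 4 groups), 2 had 1 mouse far from the other 3, where chance flags about 1 in 20 sets. *Top2a* in WT-D 1 was at 9.18 CPM, with the others of its group at 1.36 to 1.78 CPM, and the values without this mouse stand with the gene above. *Draxin* in 3xTg-D 4 was at 0.498 CPM, which is 9 reads, with the others at 0.315 to 0.339 CPM.

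The effect of CAY10566 differed between genotypes at an unadjusted p of 0.01 or less in 3 named genes by the interaction term (edgeR). The difference, as log2 fold change in 3xTg minus that in WT mice, was 0.42 for *Sox11*, 0.43 for *Tbr1* and -0.46 for *Pax6*. None of the 3 passed after adjustment over all genes. *Tbr1* was at 40.1 to 56.3 CPM in 3xTg-D and 52.7 to 57.2 CPM in 3xTg-S mice, and at 42.8 to 52.4 CPM in WT-D and 38.3 to 45.5 CPM in WT-S mice. *Pax6* was at 13 to 17.2 CPM in 3xTg-D and 10.4 to 12.6 CPM in 3xTg-S mice, and at 11.6 to 14.0 CPM in WT-D and 11 to 14.8 CPM in WT-S mice.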

How the results depend on the processing

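Over the alternatives, 0 called values of the 9 tested genes changed sign. The share of reads outside genes as covariate gave 1 called gene (*Nes*, lower in 3xTg) for 3xTg-S vs WT-S and for the genotypes averaged over infusions, and 0 for the interaction. With this covariate 5.98%, 10.4% and 0.461% of all tested genes passed, against 4.26%, 7.93% and 0.595% in the main fits. The granule cell score as covariate and all 16 mice in one fit each gave 1 (*Sox11*) for 3xTg-S vs 3xTg-D, and no filter on low counts gave 1 (*Mki67*) for WT-S vs WT-D. The shares of all tested genes there were 0.795%, 1.51% and 0.53%. For the interaction, no filter, at least 10 counts in every mouse and the adjusted threshold each gave 0 in place of 1 (0.613%, 0.616% and 0% of all tested genes). Leaving out 1 mouse gave 0 to 2 called genes for 3xTg-S vs WT-S, 0 to 1 for 3xTg-S vs 3xTg-D, for 3xTg-S vs WT-D, for the averaged genotypes and for the interaction, and 0 for the other 3 comparisons. Of all tested genes, these fits called 3.13% to 6.03%, 0.413% to 4.87%, 4.03% to 9.38%, 6.88% to 8.25% and 0.34% to 2.96%, in that order. The other comparisons gave 3.95% to 5.55% (3xTg-D vs WT-D), 0.134% to 3.13% (WT-S vs WT-D) and 0.522% to 1.19% (CAY10566 averaged over genotypes). Relations of *Dcx* with other members numbered 0, and 1 (*Sox11*, r = 0.692) without centring on the groups, which also brought the relation of *Sox11* with the share of reads outside genes (r = 0.747) past the adjusted threshold. Leaving out 1 mouse kept the number of centred relations at 0. The replicate block changed the number of called members in 0 comparisons, with *Sox11* at 0.41 (p = 0.00659) in the interaction, and every mouse correlated best with its own number in none of the 5 pairs of groups. The block did move the number of members with p under 0.05, from 1 to 5 for 3xTg-S vs WT-S. That number went from 1 to 0 for 3xTg-D vs WT-D and for WT-S vs WT-D. Of all tested genes, the block called 8.13% in place of 4.26% for 3xTg-S vs WT-S, and 6.88% in place of 0.904% for 3xTg-S vs 3xTg-D. DESeq2 gave no p for *Top2a* where WT-D 1 took part in a pairwise comparison. *Eomes*, *Igfbpl1* and *Draxin* had 0 to 14 reads per mouse, and each group had 4 mice, and how much each limits the precision was not tested.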
